A study of Mus musculus with 3 samples.

Results

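The comparison of mature osteoclasts with preosteoclasts covered 226632 regions of CG methylation, of 547915 regions listed in 3 deposited tables for the series. Every row of the deposited table that sets these stages against each other was used, and none was left out. A region is a stretch of 1 or more 200 bp bins, and its level is the number of methylated reads divided by all reads, summed over its CG cytosines. The difference is the level in the mature osteoclast library minus that in the preosteoclast library, in percentage points. The authors had already restricted the table: the smallest listed difference was 20 points, and every region held 4 or more cytosines, each read 4 or more times on average in either library. The table therefore describes where the libraries differed and how, and says nothing of the unlisted genome.

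DNA was taken from bone marrow cells of C57BL/6 mice at post natal week 11, with no genetic change named in the labels. Marrow cells that floated after 24 h of culture were grown for 72 h with M-CSF at 50 ng/mL, the growth factor that keeps macrophages alive, which gave bone marrow macrophages (BMM). Preosteoclasts (pOC) had then received M-CSF at 30 ng/mL with RANKL at 100 ng/mL for 24 h, and mature osteoclasts (mOC) the same for 72 h or more. Each stage had 1 library of whole-genome bisulfite sequencing. Bisulfite turns an unmethylated cytosine into a base read as T and spares a methylated one. The labels do not say how many animals or which sexes entered a library. No difference between the stages has a replicate check. All intervals and p-values set the reads of one library against those of the other and cover counting error only. A property of the pOC library and a property of the pOC stage cannot be told apart, nor can they for mOC.

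Osteoclasts, which have several nuclei, dissolve bone. RANKL acts on its receptor RANK in macrophage precursors and, through NF-kB, calcium signalling and the transcription factor NFATc1, starts their differentiation, after which the cells stop dividing and fuse. Methylation of CG cytosines is written de novo by DNMT3A and DNMT3B, copied after replication by DNMT1 and oxidised by the TET enzymes. Most CG sites of mammalian cells are methylated, whereas CG-rich promoters usually are not.

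The following examples show the sequence of listed regions. They are 200 bp regions that lay wholly before a coding gene's start, within the 250 bases there that the RefSeq promoter sequences of GRCm38.p6 hold, and they were chosen after their values were seen. Each is written in the direction of its gene, 5′ to 3′, with CG in capitals. Each CG counts as 2 cytosines, 1 on each strand.
Tbx19, chr1:165160803-165161002, minus strand: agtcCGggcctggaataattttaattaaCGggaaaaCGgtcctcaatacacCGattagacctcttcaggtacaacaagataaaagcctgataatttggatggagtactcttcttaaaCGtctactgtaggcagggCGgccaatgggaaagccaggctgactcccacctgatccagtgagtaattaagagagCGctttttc
Slc17a6, chr7:51624401-51624600, plus strand: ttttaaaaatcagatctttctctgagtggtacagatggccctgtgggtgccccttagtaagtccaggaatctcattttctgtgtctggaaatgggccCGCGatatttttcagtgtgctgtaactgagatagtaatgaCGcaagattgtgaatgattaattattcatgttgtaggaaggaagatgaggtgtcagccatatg
Mybpc1, chr10:88605201-88605400, minus strand: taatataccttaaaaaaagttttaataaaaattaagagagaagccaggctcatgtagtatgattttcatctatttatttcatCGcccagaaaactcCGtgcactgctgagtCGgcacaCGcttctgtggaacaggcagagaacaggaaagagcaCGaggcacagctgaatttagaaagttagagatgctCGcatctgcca
Ptprj, chr2:90479202-90479401, minus strand: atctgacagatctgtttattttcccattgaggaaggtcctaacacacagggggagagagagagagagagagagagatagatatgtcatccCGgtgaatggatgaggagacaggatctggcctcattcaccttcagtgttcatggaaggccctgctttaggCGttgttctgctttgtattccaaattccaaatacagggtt
Arpp19, chr9:75037401-75037600, plus strand: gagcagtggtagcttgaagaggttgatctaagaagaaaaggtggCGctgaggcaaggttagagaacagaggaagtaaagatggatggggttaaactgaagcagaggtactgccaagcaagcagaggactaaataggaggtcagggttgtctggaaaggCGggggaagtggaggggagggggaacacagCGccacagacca

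The 14 cytosines before Tbx19, which encodes a T-box transcription factor of the pituitary, stood at 68.0% in pOC (97 reads) and 98.5% in mOC (68 reads). Before Slc17a6, a vesicular glutamate transporter gene, 6 cytosines stood at 37.3% (59 reads) and 69.7% (76 reads). Before Mybpc1, a gene of a muscle myosin-binding protein, 12 cytosines stood at 30.7% (75 reads) and 54.6% (119 reads). These 3 regions passed Fisher's exact test with Benjamini-Hochberg adjustment over the whole table, with adjusted p of 9.57e-06, 0.00199 and 0.00591. Ptprj, a receptor tyrosine phosphatase gene, began low, at 7.14% (28 reads), and stood at 31.6% (19 reads) in mOC, and did not pass Fisher's exact test (adjusted p = 0.0639). Arpp19, which encodes an inhibitor of the phosphatase PP2A, lay the other way, at 50% (36 reads) and 20% (40 reads), with an adjusted p of 0.0204. The RefSeq promoter entries used here hold none on chromosome 18, so that chromosome is not in the promoter counts or the distances to a coding start. Elsewhere 123 regions lay wholly inside a promoter window of 300 bases, 110 of them higher and 13 lower in mOC. In 119 of these 123 the deposited number of cytosines equalled that counted in the sequence, which checks the build and the coordinates.

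Over the whole comparison 202036 regions (89.1%) were higher and 24596 lower in mOC. The median level over listed regions was 46.6% in pOC and 73.9% in mOC. Regions higher in mOC differed by a median of 27.9 points (interquartile range 23.8 to 34.0) and those lower by -25.9 points (-30.3 to -22.7). Depth was low, with a median of 35 reads per region (6.3 per cytosine) in pOC and 31 (5.6) in mOC. The Newcombe 95% interval of a single difference was therefore wide, with a median width of 40.6 points against a median size of 27.7 points. Fisher's exact test, two-sided and adjusted over all rows, passed 146775 regions (64.8%), 135577 of them higher and 11198 lower in mOC. The interval excluded 20 points, the authors' own limit, in 18251 regions, and 97.2% of those were higher in mOC. Because a read that covers several cytosines enters a region several times, the test was repeated with reads divided by the cytosines per strand. Then 2 regions passed, one in Sfi1 (chr11:3179402-3179601, 34.1% of 763 reads and 56.0% of 589) and one in Apool (chrX:112370601-112370800, 39.8% of 211 and 73.7% of 278). Both regions had far more reads than the median of 35. At an unadjusted p of 0.05 that test passed 27391 regions, 94.7% of them higher in mOC.

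The median gain lay between 22.8 and 30.6 points over the classes of starting level up to 80%. Regions at up to 10% in pOC gained a median of 26.0 points and reached 31.6% in mOC. The gain was greatest in the middle, at 30.4 points between 30% and 40% and 30.6 points between 40% and 50%, and was 22.8 points between 70% and 80%. This peak moved with reads in the shallower library. At 16 to under 20 reads the 2 middle classes had 36.8 and 36.6 points, against 27.4 points at up to 10%. At 40 reads or more they had 27.5 and 27.7 points, against 25.1 points. The part of counting error in the peak was not tested. A gain could not start above 80% nor a loss below 20%, since the table lists no difference under 20 points, and so the ends of this curve are bounded by construction. The same limit sets the mOC level of higher regions, which must lie at least 20 points above the pOC level, so no trend is read from it. Losses had a median between -20 and -27.5 points in each class.

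**Figure D1:**
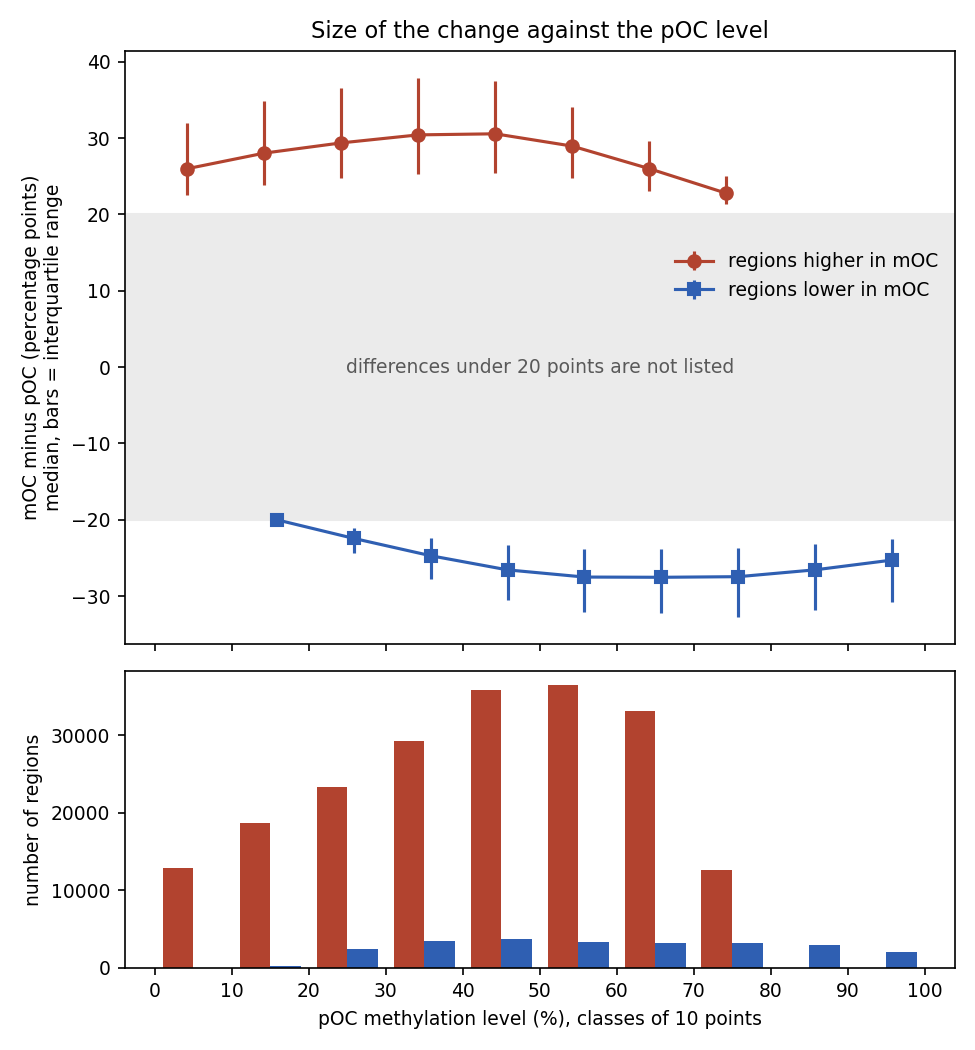
Median difference, mOC minus pOC in percentage points, against the pOC level in classes of 10 points (upper panel, bars are interquartile ranges over regions), and the number of regions in each class (lower panel). Gains are greatest from 30% to 50%, at 30.4 and 30.6 points, and the grey band marks differences that the table does not list.

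Few regions crossed from one end of the scale to the other. Of 31749 regions at 20% or less in pOC, 254 (0.8%) stood at 80% or more in mOC, and 31039 stood in between. Of the 189641 regions that lay between 20% and 80% in pOC, 92956 (49.0%) reached at least 80% in mOC and 8958 (4.72%) stood at 20% or less. Only 10 of the 5242 regions at 80% or more in pOC were at 20% or less in mOC. Full methylation was read in 9804 regions in mOC and in 483 in pOC. A reading of 100% on 17 reads, as in Mcm5 and Cox6c below, had an exact 95% interval that began at 80.5%.

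The gains from at most 10% in pOC and the losses from at least 90% whose intervals lay farthest from 0 included these single bins. Ube4a, a ubiquitin ligase gene, had 8 cytosines, none of them methylated in 38 pOC reads (0%, interval 0 to 9.25), and an mOC level of 91.8% (80.4 to 97.7, 49 reads). Tbc1d5, a gene of a regulator of endosomal Rab proteins, had 4 cytosines at 0% of 17 pOC reads and 90.9% of 22 mOC reads. Srp54c, a paralog of the signal recognition particle gene Srp54, had 4 cytosines at 0% (95% interval 0 to 20.6, 16 reads) in the pOC library and at 87.5% (61.7 to 98.5, 16 reads) in the mOC library. Reads of such paralogs may be split between copies. Cenpp, which encodes a centromere protein, stood at 10% (1.24 to 31.7, 20 reads) and 91.3% (72.0 to 98.9, 23 reads). Stra6l, a retinol-binding protein receptor gene, had 10 cytosines and more reads, with 2.5% (0.0633 to 13.2, 40 reads) and 73.9% (61.5 to 84.0, 65 reads). In the opposite direction, Rbfox1, a neuronal splicing factor gene, stood at a pOC level of 100% (92.1 to 100, 45 reads) and an mOC level of 35.3% (19.8 to 53.5, 34 reads). Prrg1 and the serotonin receptor gene Htr2c, both on chromosome X, stood at 94.1% (17 reads) and 92.3% (26 reads) in pOC, and at 27.8% (18 reads) and 30% (20 reads) in mOC. These 8 regions passed the adjusted Fisher's exact test, with adjusted p between 1.1e-08 and 0.00099 for the losses and between 1.2e-16 and 2.5e-05 for the gains. They were ranked on the same reads, so passing is no separate check.

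Differences of at least 50 points were rare and nearly all gains. They numbered 6233 gains (2.75% of the table) and 244 losses (0.108%).

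Over all listed regions, denser CG sequence was more often higher in mOC. At equal numbers of total reads, with width not matched, this order was small or absent. With 4 to under 6 cytosines per 200 bp, 86.5% of 118075 regions were higher in mOC (95% interval 86.3 to 86.7). The share was 90.6% from 6 to under 8, 92.9% from 8 to under 10, 94.9% from 10 to under 15 and 95.9% (93.8 to 97.5, 513 regions) from 20 to under 30 cytosines. At 30 and above only 80 regions were listed, and 92.5% of them (84.4 to 97.2) were higher. The median gain was 29.2 points in the sparsest class and 26.2 points from 10 to under 15. Regions with more cytosines also have more reads, and the share that was higher moved with reads as well, from 84.8% at 16 to under 20 reads to 97.9% at 100 reads or more, while the median gain went from 31.3 to 26.4 points. Set side by side at equal total reads in the shallower library, the shares from 4 to under 6, from 6 to under 8 and from 8 to under 10 cytosines were 88.0%, 90.7% and 91.5% at 30 to under 40 reads. At 40 to under 60 reads they were 93.2%, 92.3% and 93.4%, with 94.5% from 10 to under 15 cytosines. At 60 to under 100 reads the order was turned round, at 96.9% (96.0 to 97.7), 97.1%, 96.0% and 95.2% (94.7 to 95.8). There the 2 sparser classes had medians of 10 and 12 cytosines at median densities of 5 and 6. Many of their regions therefore held more than 1 bin. The next 2 classes had medians of 8 and 12 cytosines at densities of 8 and 12. Wider regions were more often higher, so density and width cannot be told apart in this order. The order was plain within classes of reads per cytosine, which leave denser regions with more total reads. At 4 to under 5 reads per cytosine, 85.2% of the sparsest regions, 90.1% of those with 6 to under 10 cytosines and 94.6% of those with 10 or more were higher. At 8 to under 12 reads the 3 shares were 88.8%, 93.8% and 96.0%. At 12 reads and above the 2 denser classes stood together at 96.1% each, above the 90.9% of the sparsest. The order was also present at equal pOC level, where total reads were not matched and the pOC reading also enters the difference. The shares were 85.6%, 95.9% and 98.8% between 20% and 30% and 89.9%, 91.9% and 94.4% between 60% and 70%.

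**Figure D2:**
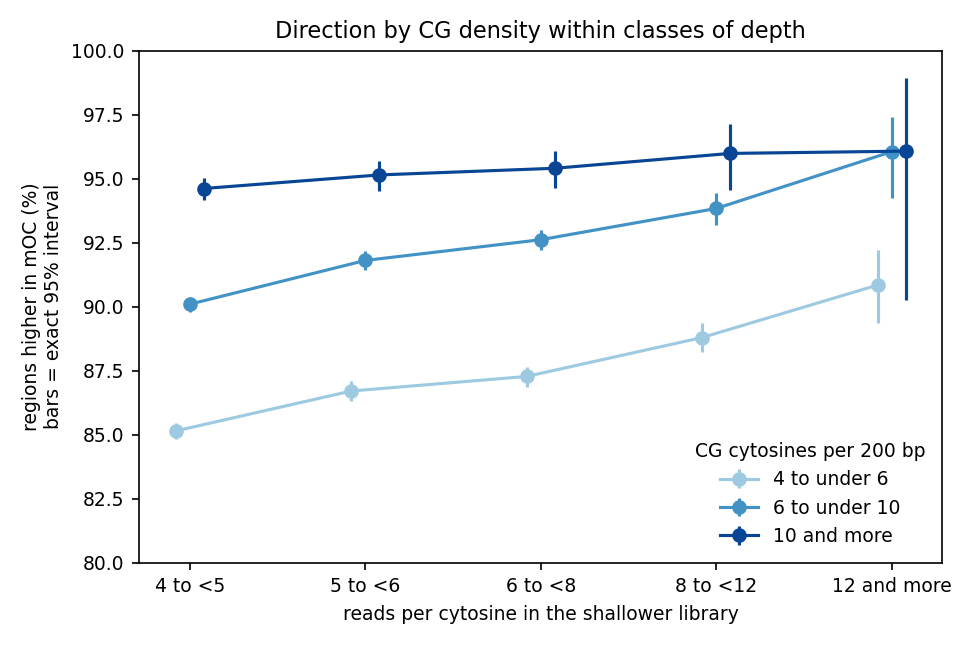
Percentage of regions higher in mOC against reads per cytosine in the shallower library, for 3 classes of CG density (points are shares, bars exact 95% binomial intervals over regions, axis from 80% to 100%). At 4 to under 5 reads the classes stand at 85.2%, 90.1% and 94.6%, and the 2 denser ones meet at 12 reads and more; denser regions hold more total reads in each class.

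Among CG-dense regions in genes, those with at least 10 cytosines per 200 bp, the gains whose interval lay farthest from 0 began at 25.6% or less in pOC. Kbtbd8, an adaptor gene of the CUL3 ubiquitin ligase, had 23.0% (13.2 to 35.5, 61 reads) in the pOC library against 100% (91.4 to 100, 41 reads) in the mOC library. Dpp4, a cell-surface peptidase gene, stood at 13.3% (45 reads) and 86% (50 reads), 70530 bp after its start. Pigl, a gene of GPI-anchor synthesis, stood at 25.6% (43 reads) and 95.5% (44 reads). Rab5b, an early endosome GTPase gene, stood at 25% (48 reads) and 93.8% (48 reads). Their adjusted p lay between 2.9e-13 and 2e-09. Losses in dense regions had comparable depth. The loss whose interval lay farthest from 0 was in Smarca5, which encodes the ISWI chromatin remodeller SNF2H: 20 cytosines stood at a pOC level of 84.0% (75.1 to 90.8, 94 reads) and an mOC level of 34.9% (27.3 to 43.1, 149 reads), a difference of -49.1 points (-58.5 to -37.4, Fisher's exact test adjusted p = 2.6e-11). Atp8b4, a lipid flippase gene, stood at 77.6% (143 reads) and 35.7% (56 reads), and Snx14, a sorting nexin gene, at 79.2% (48 reads) and 31.9% (47 reads). Ptprq, a receptor phosphatase gene of the inner ear, stood at 68.3% (101 reads) and 23.5% (51 reads), where its span overlaps a predicted gene.

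Wider regions were almost all higher in mOC. Of 216673 regions of 200 bp, 88.7% were higher, of 9342 regions of 400 bp 98.6%, and of 574 regions of 600 bp 99.8%. The 37 regions of 800 bp, 5 of 1000 bp and 1 of 1200 bp were all higher. The gain hardly moved, from 27.8 points at 200 bp to 28.9 points at 400 bp and 28.8 points at 600 bp. Neighbouring bins appear as 1 region where they share a direction: of 1345 pairs of listed regions that touch, 11.5% had the same direction. Width thus counts runs of bins with one direction, and a direction that is common forms runs more often. At matched reads per cytosine (4 to under 5), 88.0% of the 200 bp regions and 98.7% of the 400 bp regions were higher. Total reads were not matched there, with medians of 29 in pOC and 26 in mOC at 200 bp and 67 and 59 at 400 bp. Over regions of any width the share was 96.0% at 60 to under 100 reads in the shallower library.

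Wide regions in genes are those of 600 bp or more. Cpeb3, which encodes a regulator of mRNA translation, had 32 cytosines in 600 bp at 55.2% (47.0 to 63.2, 154 reads) in the pOC library and at 94.9% (91.1 to 97.4, 216 reads) in the mOC library. Cenpu, a centromere protein gene, had 28 cytosines in 800 bp at 41.2% (177 reads) and 81.1% (175 reads). Klhdc1 stood at 36.9% (149 reads) and 82.4% (119 reads). H1f8, the oocyte linker histone gene, stood at 40.2% (102 reads) and 83.2% (101 reads), and Taldo1, a pentose phosphate pathway gene, at 36.5% (115 reads) and 78.0% (132 reads). The single wide loss lay in Elapor2, with 59.6% (48.6 to 69.8, 89 reads) and 32.4% (21.5 to 44.8, 68 reads) over 600 bp. All 6 passed the adjusted Fisher's exact test, Elapor2 with an adjusted p of 0.006. The gains were ranked on the same reads, so their passing is no separate check.

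Position relative to genes went with both the level and the direction. Inside annotated gene spans 91.1% of 132363 regions were higher in mOC, with median levels of 51.3% in pOC and 80% in mOC. Outside them 86.4% of 94269 regions were higher, with 40% and 64.7%. The share outside was lower with distance from the nearest gene, going from 90.1% within 5000 bp to 87.2% up to 20000 bp, 84.5% up to 100000 bp and 79.5% (78.6 to 80.3) in the 8786 regions farther away. Median pOC levels over the same steps were 45.5%, 40.6%, 36.1% and 32.6%, and mOC levels 73.2%, 66.7%, 59.3% and 52.8%. The size of a gain did not follow, with a median of 28.1 points in the nearest and 27.4 points in the farthest class.

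The gap between genic and distant regions was widest where the pOC level was high. In regions at 20% to 30% in pOC, 92.1% inside genes and 83.5% of those over 100000 bp away were higher in mOC. At 60% to 70% these shares were 94.3% (93.99 to 94.6, 26294 regions) and 62.4% (58.1 to 66.6, 511 regions). In each of the 5 classes between 20% and 70% the exact 95% intervals of regions inside genes, all regions outside and those over 100000 bp away did not overlap. Neighbouring regions are not independent, so these intervals are too narrow. The pOC reading sets the class and also enters the difference, and pOC levels were lower far from genes. How far counting error in that reading widens the gap was not tested. The lower share far from genes was also present in each class of reads per cytosine, for instance 79.6% against 90.3% at 4 to under 5 reads and 81.4% against 92.4% at 8 to under 12. Total reads were not matched: at 4 to under 5 the medians were 27 in pOC and 22 in mOC far from genes and 30 and 26 inside.

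**Figure D3:**
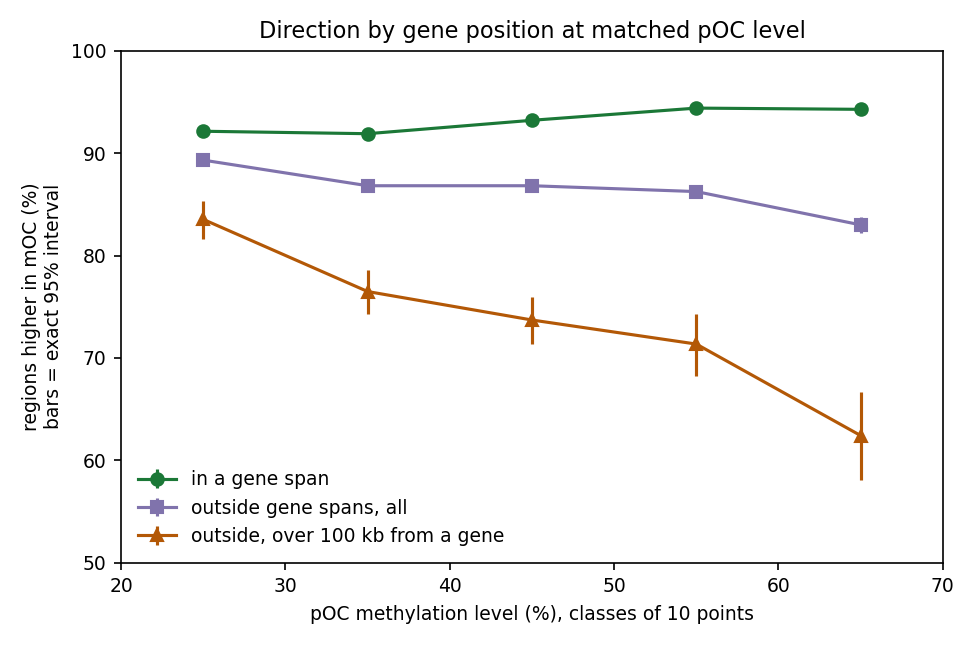
Percentage of regions higher in mOC against the pOC level in classes of 10 points, for regions in gene spans, outside them and over 100 kb from a gene (bars are exact 95% binomial intervals over regions, axis from 50% to 100%). The genic share stays between 91.9% and 94.4%, while the distant one goes from 83.5% to 62.4%.

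Around gene starts the listed regions had lower levels in both libraries, and a share of gains like that of genes at large. For 218687 regions the distance to the nearest coding gene start of known strand was computed. The median pOC level was 50% from 2000 to 1000 bp before the start, 44.1% in the last 500 bp, 43.6% from 500 to 1000 bp after it and 54.2% from 2000 to 5000 bp after it. The mOC medians at these places were 80.3%, 71.3%, 71.9% and 84.2%. Higher regions made up 94.1% (93.1 to 94.99), 91.9% (89.2 to 94.2), 91.2% (88.9 to 93.2) and 93.6% (93.1 to 94.2). The middle of 496 regions lay in the last 500 bp before a start and that of 352 in the first 500 bp after it. Listed regions were rarest at CG-rich promoters. Of coding promoters with 5 to 9 CG in their 300 bases, 4.02% (3.36 to 4.76) held a listed region, against 0.184% (0.0793 to 0.361) of those with 20 to 29 and 0.122% (0.0332 to 0.312) of those with 30 or more. Promoters with 0 or 1 CG held one in 1.04%, and they offer at most 2 cytosines of the 4 that every listed region had.

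**Figure D4:**
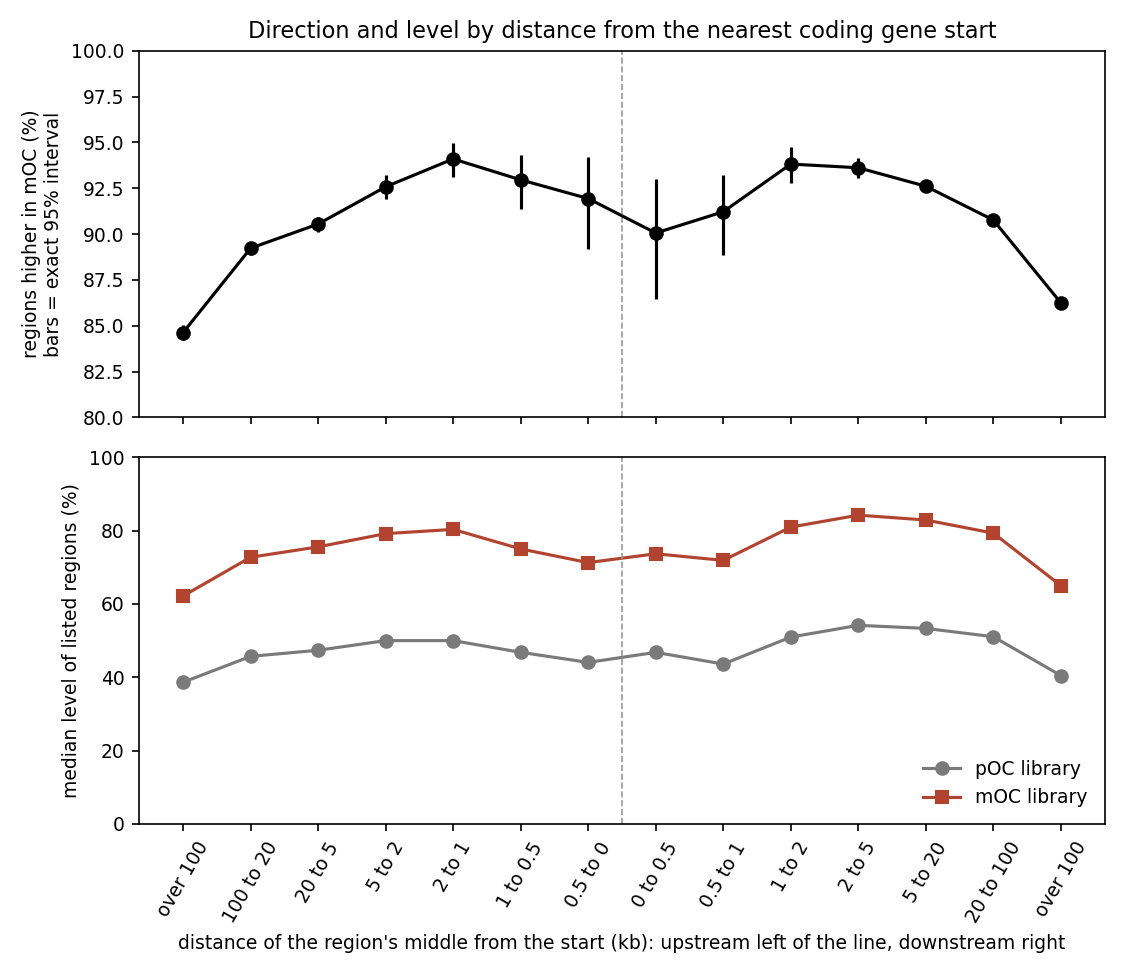
Percentage of regions higher in mOC (upper panel, bars are exact 95% binomial intervals, axis from 80% to 100%) and median level in each library (lower panel) by distance from the nearest coding gene start, in kb, upstream to the left of the dashed line. Levels dip around the start, to 44.1% in pOC and 71.3% in mOC in the last 0.5 kb before it.

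Gene-start regions overlapped the 1000 bp on either side of a start or, where the strand was not known, of the nearer gene end. Those named here are the gains whose interval lay farthest from 0. Lingo1, a gene of a neuronal membrane protein, had 8% (0.984 to 26.0, 25 reads) in the pOC library against 94.4% (72.7 to 99.9, 18 reads) in the mOC library, with the middle of the region 1052 bp before the start of its RefSeq promoter entry and inside the annotated span. Ust, a sulfotransferase gene of dermatan and chondroitin sulfate, stood at 15.7% (8.61 to 25.3, 83 reads) and 80.3% (68.2 to 89.4, 61 reads), 1075 bp before it. Jmy, a gene of an actin nucleator, stood at 19.4% (31 reads) and 85.7% (35 reads), 1095 bp before, and Septin9, a cytoskeletal GTPase gene, at 32.5% (40 reads) and 95% (40 reads), 560 bp before. A region 848 bp before Gtf2a2, a gene of the general transcription factor TFIIA, stood at 22.2% (45 reads) and 91.6% (83 reads) and overlaps in part one end of Bnip2. Apc2, a relative of the Wnt regulator Apc, stood at 15.4% (6.88 to 28.1, 52 reads) and 83.3% (69.8 to 92.5, 48 reads), 344 bp after its start. Tmem145 stood at 36.6% (41 reads) and 96.8% (63 reads), 992 bp after the start of its promoter entry. Near a gene end of Hbegf, which encodes a growth factor of the EGF family, the levels were 29.2% (19.1 to 41.1, 72 reads) and 92.6% (82.1 to 97.9, 54 reads). Arcn1, a coatomer subunit gene, stood at 18.2% (44 reads) and 93.8% (32 reads) near an end, Cox6c, a cytochrome oxidase subunit gene, at 23.5% (17 reads) and 100% (17 reads), Abhd1 at 12% (25 reads) and 80% (30 reads), and Pias2, a SUMO ligase gene, at 12.5% (16 reads) and 100% (21 reads). All 12 passed the adjusted Fisher's exact test, with adjusted p between 2.8e-12 and 0.00013. Because they were ranked on the same reads, passing is no separate check. With reads counted about once none of them passed after adjustment.

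The losses ranked first near starts were smaller. Fgfr2, a fibroblast growth factor receptor gene, stood at a pOC level of 72.3% (57.4 to 84.4, 47 reads) and an mOC level of 33.3% (23.4 to 44.5, 84 reads), 108 bp after its start, and had the most reads. Hpdl stood at 65% (20 reads) and 10% (20 reads), 794 bp before its start. Npvf, a neuropeptide precursor gene, stood at 96.2% (26 reads) and 43.8% (16 reads), and Pak7, a kinase gene, at 50% (70 reads) and 12.5% (40 reads). Pou2f3, a transcription factor gene of tuft cells, stood at 45% (40 reads) and 3.7% (27 reads), and the microRNA gene Mir147 at 70% (30 reads) and 21.1% (19 reads), both near an end. Their adjusted p lay between 0.00039 and 0.006.

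**Figure D5:**
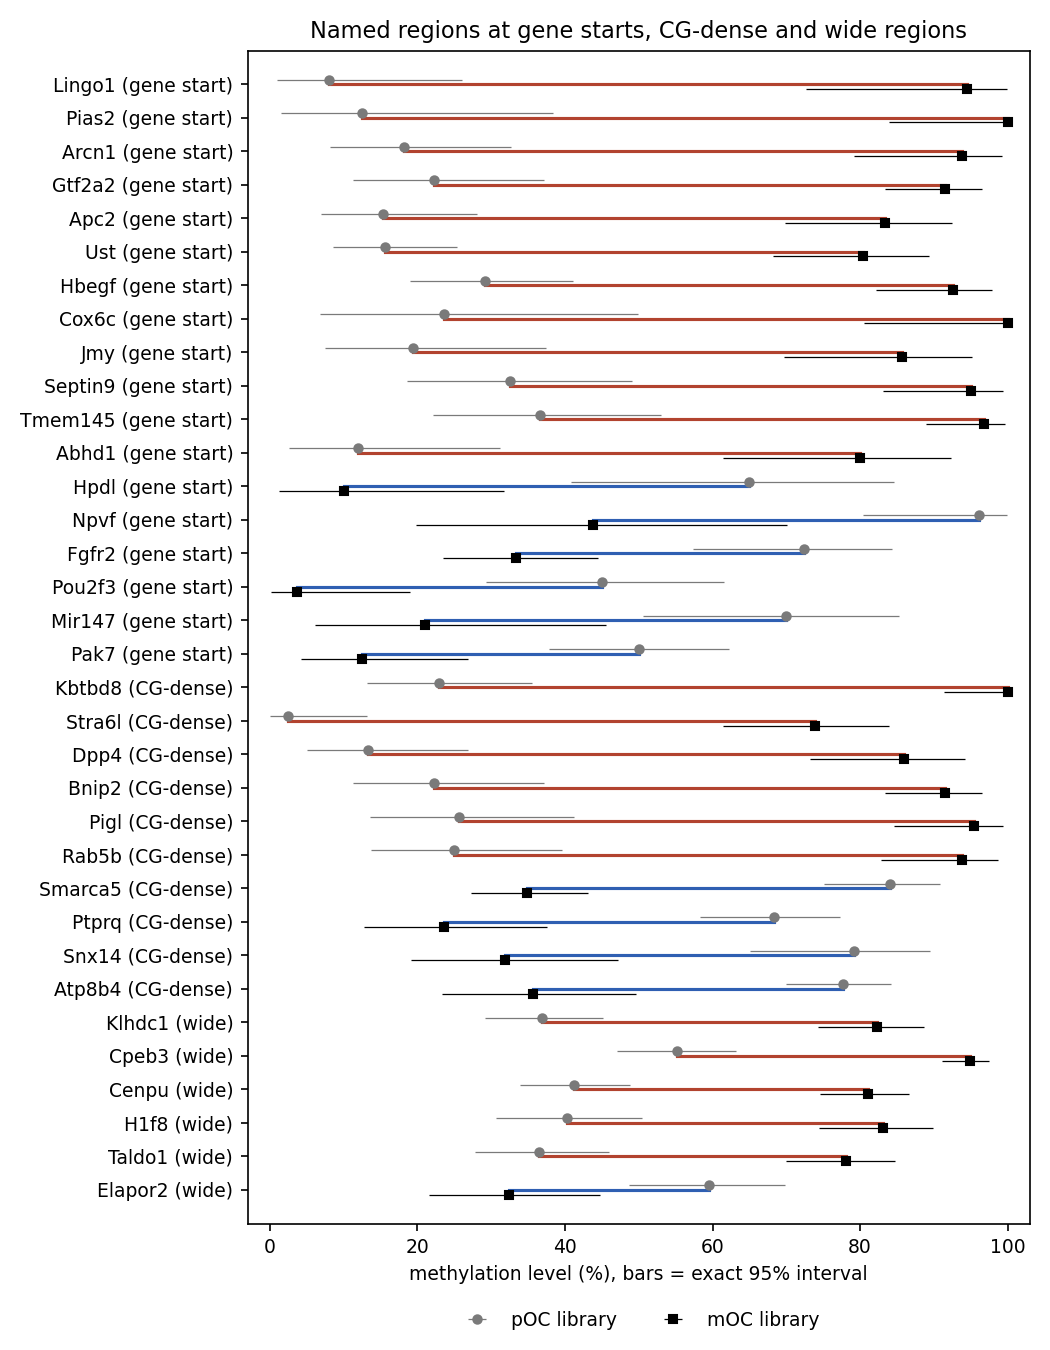
Methylation level in percent in the pOC library (circles) and the mOC library (squares) for the named regions at gene starts, of high CG density and of 600 bp or more, with exact 95% intervals. Red lines join regions higher in mOC and blue lines regions lower, for instance 84.0% to 34.9% in Smarca5.

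Most protein-coding genes held a listed region. Of 21887, 14673 (67.0%) did, 9737 with only higher regions, 254 with only lower ones and 4682 with both. In the 1369 genes with at least 20 regions the median share that was higher was 92%, and in 190 of them every region was higher. The longest such runs were 58 regions in Tmem131l, 57 in Pde4dip, which encodes a Golgi and centrosome anchor protein, and 55 in Vti1a, a vesicle SNARE gene. None of the 1369 had more lower than higher regions. The lowest shares were 13 higher and 10 lower in Mei4, a gene of meiotic recombination, 12 and 8 in the netrin receptor gene Unc5c, 18 and 11 in the kinase gene Tnik, 21 and 10 in Tex14 and 25 and 11 in Tcra, the T cell receptor alpha locus. The median pOC level of the regions of Tmem131l, Pde4dip and Vti1a was 64.1%, 50.6% and 61.1%, against 37.1%, 37.5%, 32.6%, 44.9% and 28.2% in the latter 5.

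The gene groups of osteoclast biology are described beside the regions in all genes, of which 91.1% were higher in mOC. Over these the difference had a median of 27.1 points. Of all protein-coding genes, 67.0% held a listed region. The lists were not tested against either share. Among osteoclast transcription factors, 21 of 27 held regions, 224 higher and 8 lower, with a median of 28.5 points. Ppargc1b, a coactivator of mitochondrial biogenesis, had 15 regions, all higher, with a median of 36.5 points. Its 14 cytosines on chromosome 18 (61343801 to 61344200) had 41.4% (29.8 to 53.8, 70 reads) in the pOC library against 91.8% (83.0 to 96.9, 73 reads) in the mOC library. Mef2d and Creb1, activity-dependent factors, had 11 and 10 regions, all higher. Tfeb, the lysosomal gene activator, had 12, all higher. Runx1, a regulator of blood cell fate, had 35 higher and 2 lower. Fos, Jun, Junb, Jund and Rela, which are short genes, and Tfe3 held no listed region. Nfatc1 had 5 higher and 1 lower, and Atf4 1 of each.

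Genes of bone resorption and acid secretion held regions in 21 of 22 members, 79 higher and 7 lower, with a median of 25.8 points. Atp6v1a, the catalytic subunit of the proton pump, had 16 cytosines at 9.2% (4.05 to 17.3, 87 reads) in the pOC library and at 50.9% (41.1 to 60.8, 106 reads) in the mOC library (Fisher's exact test, adjusted p = 5.5e-08). Rab27a, a GTPase of lysosome-related organelles, stood at 26.9% (11.6 to 47.8, 26 reads) and 94.7% (74.0 to 99.9, 19 reads). The region lies 2152 bp after the start of a RefSeq promoter entry inside the gene span. Rab3d, a GTPase of secretory vesicles, had 2 regions, both higher, with a median of 46.8 points. Acp5, which encodes the osteoclast phosphatase TRAP, had 1 higher region, Mmp9 had 2 and Car2 had 4. The 7 lower regions lay 1 each in the proton pump subunit genes Atp6v0d2, Atp6v1a and Atp6v1c1, in Snx10, Rab7, Calcr and Lamp2, all of which also had higher ones.

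Cell fusion and podosome genes held regions in 26 of 28 members, 306 higher and 26 lower, with a median of 26.9 points. Myo10, a filopodial motor, had 31 higher and 1 lower and stood at 42.9% (63 reads) and 91.2% (57 reads) in one of them. Vcl, which encodes vinculin, stood at 38.9% (18 reads) and 100% (24 reads) in one of 15 regions. The fusion receptors Dcstamp and Ocstamp had 1 higher region each. Src, the kinase of the sealing zone, had 6 regions, all higher, with a median of 34.6 points, and the talin gene Tln1 had 9, all higher, with 32.9 points. Adam12 had 12 higher and 4 lower.

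In RANK and NF-kB signalling 19 of 22 members held regions, 115 higher and 6 lower, with a median of 28.3 points. The receptor gene Tnfrsf11a had 7 regions and the adaptor gene Traf6 had 5, all higher. The inhibitory adaptor gene Traf3 had 23 higher and 2 lower, and the deubiquitinase gene Cyld 11, all higher. Tab2, an adaptor of the kinase TAK1, stood at 40.6% (28.5 to 53.6, 64 reads) and 92.3% (79.1 to 98.4, 39 reads), and the IKK-alpha gene Chuk at 50% (44 reads) and 97.5% (40 reads). In ITAM and calcium signalling 23 of 26 members held regions, 358 higher and 27 lower, with a median of 27.8 points. Plcg2, the phospholipase that acts below the ITAM receptors, had 31 regions, and the plasma membrane calcium pump gene Atp2b4 had 18, all higher. Itpr2, a calcium release channel gene, had 55 higher and 4 lower. Ppp3cb, a calcineurin subunit gene, stood at 37.5% (40 reads) and 94.6% (37 reads). The kinase gene Btk, on chromosome X, had a single region, and it was lower.

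Genes that write, read and erase DNA methylation held regions in 19 of 24 members, 135 higher and 2 lower, with a median of 28 points. Dnmt1, the maintenance methyltransferase, had 7 regions, all higher, with a median of 42.1 points. One of them stood at a pOC level of 29.2% (12.6 to 51.1, 24 reads) and an mOC level of 100% (91.0 to 100, 39 reads), 26523 bp after the start of a RefSeq promoter entry inside the gene span (Fisher's exact test, adjusted p = 8.6e-08). Dnmt3a and Tet3 had 14 regions each and Tet2 had 9, all higher. Tet1 had 11 higher and 1 lower and stood at 14.7% (5.0 to 31.1, 34 reads) and 83.3% (58.6 to 96.4, 18 reads). Of the 137 regions, 95 passed the adjusted Fisher's exact test. In all genes 67.2% passed.

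The other groups had the same direction. The share of regions higher in mOC was 92.47% in TGF-beta and BMP signalling and 94.77% in cell cycle genes. It was 89.55% in semaphorins and plexins and 90.65% in genes of mitochondria and energy use, below the 91.1% of regions in all genes. These differences were not tested. TGF-beta and BMP signalling had 307 higher and 25 lower regions in 23 of 24 members, among them Bmpr1a, a BMP receptor gene, at 13.6% (22 reads) and 94.4% (18 reads). Smad3 and Smad4, the signal carriers, had 16 regions each, all higher. Semaphorins and plexins, guidance factors that also act between osteoclasts and osteoblasts, had 240 and 28 in 15 of 17 members. Sema3a had 19 higher and 8 lower, whereas Sema4d had 13, Plxnc1 31 and Nrp2 15, all higher. Cell cycle genes had 163 and 9 in 20 of 25. The licensing factor gene Mcm5 had 1 region, at 17.7% (3.8 to 43.4, 17 reads) and 100% (80.5 to 100, 17 reads), and Top2a had 30 cytosines in 400 bp at 34.1% (27.2 to 41.5, 179 reads) and 77.2% (70.7 to 82.8, 197 reads). Genes of mitochondria and energy use had 281 and 29 in 23 of 24. Ldha and Sirt3 had 3 and 2 regions, all higher, with medians of 44.9 and 44.0 points, and Ppargc1a had 37 higher and 9 lower.

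Methylation does not measure expression, so the stage labels could not be checked against marker genes here. Macrophage genes had 86 higher and 8 lower regions in 14 of 22 members, with Itgam at 55.9% (102 reads) and 93.6% (94 reads) and Cx3cr1 at 59.3% (54 reads) and 96.9% (96 reads). Levels in genes that mark other cells of the marrow are set beside those of regions in all genes, 51.3% in pOC and 80% in mOC, and the differences between lists were not tested. Median pOC and mOC levels were 33.3% and 57.5% in the regions of B cell markers (50 higher, 3 lower), 46.4% and 67.7% in T cell markers (40 and 8), 35.3% and 69.0% in neutrophil markers (7 and 0), 38.6% and 65.5% in erythroid and megakaryocyte markers (7 and 0) and 50% and 77.2% in stromal and osteoblast markers (84 and 8). Those of the osteoclast transcription factors were 57.9% and 87.9%. Ebf1, a B cell factor, had 27 regions, all higher, and Runx2, the osteoblast factor, had 64 higher and 1 lower. The part of other cell types in these levels was not tested.

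Chromosome X differed from the autosomes, whose shares of higher regions ran from 88.1% on chromosome 14 to 90.7% on chromosome 11. On X the share was 80.2% (78.7 to 81.8) of 2556 regions. It was lower than on the autosomes at equal pOC level, with 83.5% against 90.8% between 20% and 30% and 70.2% (63.8 to 76.0) against 91.3% between 60% and 70%. There too the pOC reading also enters the difference, and the part of its counting error was not tested. At 4 to under 5 reads per cytosine the share on X was 79.1% against 88.5%. At 12 reads and more it rested on 12 regions and could not be told from the autosomes (91.7%, interval 61.5 to 99.8, against 92.5%). On Y the share was 70.8% (63.3 to 77.5) of 171 regions. At 4 to under 5 reads per cytosine it was 72.1% of 86 regions, at 5 to under 6 it was 62.5% of 32, and at 6 to under 8 it was 66.7% of 30.

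The BMM library gives a further level for regions that the authors also listed in another table. Those tables share the pOC or the mOC library with this one, so the values are set side by side only. Only part of the regions had such a level. In 78709 higher regions (39.0% of all higher ones) also listed for pOC against BMM, the median levels were 81.8% in BMM, 46.4% in pOC and 80.4% in mOC. In 3683 lower regions they were 24.4%, 56.3% and 25%. In 12464 higher regions (6.17%) also listed for mOC against BMM they were 46.3%, 38.7% and 72.9%, and in 4746 lower regions (19.3%) 69.2%, 65% and 35%.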

How the data were processed

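Whole-genome bisulfite sequencing of 1 library each of pOC and mOC was compared. The authors deposited a table of regions whose headings name hours, which were matched to the stages by the hours of RANKL in the labels. Per the file headers, a row gives the coordinates, how many cytosines were summed, methylated and total read counts for either library, the level as a fraction, a p-value and a direction. GRCm38 is the build in the submitters' processing notes, which also name FastQC, HISAT2 and StringTie without a role. Which tools aligned the reads, called regions and gave the p-value is not given in the sources used here. The limit set on the deposited p-value kept 165134 higher and 16484 lower regions, and the adjusted score test passed the same numbers. The deposited p-value may therefore come from such a test, but a match region by region was not tested. Reads were summed over cytosines by the authors, so a read that covers several counts several times and the precision of single regions is overstated. The table holds listed regions only, so the total depth of a library is unknown. Its p-value, of which the largest was 0.0917, was used only as a filter.

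Levels were recomputed from the deposited counts, with exact Clopper-Pearson 95% intervals for shares and levels and Newcombe 95% intervals for differences. Fisher's exact tests (two-sided) were adjusted by Benjamini-Hochberg over all 226632 regions, which the authors had chosen for a large difference, so adjusted p-values are not those of a genome-wide search. Python 3.11.15, scipy 1.17.1 and pandas 2.3.3 were used. Regions were placed with the spans of 49943 genes in RefSeq's table for GRCm38.p6 and RefSeq promoter entries that gave the strand of 27025 genes, so exons and introns were not placed. Named genes were those with a known symbol whose Newcombe interval lay farthest from 0 (12 gains and 6 losses at gene starts, 6 and 4 in CG-dense regions, 5 and up to 3 in wide regions, 6 gains from at most 10%, 6 losses from at least 90%, up to 4 per list), and genes with at least 20 regions by share. The ranking by interval used the same reads as Fisher's exact test, so a pass by a named region is no separate check. Other list members are given with counts of their regions and were picked after their values were seen. All 309 entries of the 16 gene lists matched by symbol. Members, lists and named genes were chosen with earlier results of these data known. Alternatives were the deposited p-value at most 0.05, differences of at least 30 points, at least 40 reads, autosomes, single bins, other windows, density and width limits, reads counted about once, and a score test.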

Additional observations from a re-analysis of the deposited data

How the results depend on the processing

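No paired analysis was possible because each stage had 1 library, and leaving out a replicate was impossible for the same reason. Over the alternatives 45 values were recomputed, of which 26 lay outside the 95% interval of the value as reported (for a count, differed from it by over 1.5 times) and 0 reversed. The share of regions higher in mOC was 90.9% where the deposited p-value was 0.05 or less, 92.5% with differences of at least 30 points, 94.4% with at least 40 reads in both libraries and 88.7% in single bins. Under the same 4 settings the median gain was 29.5, 35.8, 26.3 and 27.8 points, and the median share of the distance to full methylation that gains covered, 57.0% as reported, was 60.6%, 66.5%, 54.2% and 56.7%. The median loss was -27.6, -34.2 and -23.6 points under the first 3, and the share of higher regions at gene starts 92.9%, 93.9% and 95.8%. With 300 bp promoter windows the share at gene starts was 90.8%. With differences of at least 30 points the share was 97.6% in CG-dense regions and 100% in regions of 600 bp and up. It was 95.5% with a density limit of 20 cytosines per 200 bp and 98.7% with a width limit of 400 bp. Fisher's exact test passed 146775 regions as reported, 165479 where the deposited p-value was 0.05 or less, 145409 on autosomes, 134904 in single bins, 82031 with differences of at least 30 points, 56313 with at least 40 reads and 2 with reads counted about once, while the score test passed 181618. The counts of 165479, 82031 and 56313 come from tables of 181618, 87441 and 57473 regions. For the first, the adjustment was repeated over regions already kept by a p-value for the same difference. That count is therefore no separate check of the 146775. The score test passed 165134 higher and 16484 lower regions, the same numbers that a deposited p-value of 0.05 or less kept. Both settings are among the 45 values, although they are not separate alternatives to each other. The settings kept or dropped a named region without changing its counts, so none of the 106 named regions could reverse. Of these 106, 55 had under 40 reads in a library. In 25 the unadjusted p of Fisher's exact test was above 0.05 with reads counted about once.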

Other observations

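Regions higher and lower in mOC were interspersed along the chromosomes. The median gap between neighbouring regions was 5600 bp. At gaps of 1000 to 5000 bp the next region was lower in 12.2% of cases after a lower one and in 8.64% after a higher one, and at gaps of over 20000 bp in 18.4% and 15.6%. All 1953 windows of 1 Mb with at least 50 regions lay on autosomes, so chromosomes X and Y are not covered. In these windows the share higher in mOC ran from 67.9% to 98.5%, with a median of 89.7%, and it was under 50% in 0 of them. The lowest share was on chromosome 12 (92000001 to 93000000, 36 of 53 regions higher) and the highest on chromosome 10 (81000001 to 82000000, 65 of 66). Median reads per cytosine were 5 in both windows.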
